A study of Mus musculus with 31 samples.

Results

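The genes of Hedgehog signal reception and response were examined in the accessible chromatin of NIH-3T3 cells. They were taken by name: Ptch1, Hhip, Boc, Cdon, Gas1, Smo, Sufu, Gli1, Gli2 and Gli3, which are 10 of the 21938 protein-coding genes annotated on chromosomes 1 to 19, X and Y. The study asked how the binding of transcription factors to mitotic chromosomes relates to their mobility and the sites they occupy. It profiled NIH-3T3 lines that overexpress such factors. The peak list analysed here comes from the parental line, a mouse embryonic fibroblast line without a transgene, as 1 ATAC-seq library of 50000 cells. The other 30 samples of the series were not analysed here. The cells grew in medium with serum, and the labels list neither doxycycline nor a Hedgehog ligand or agonist for them. The study's methods, however, describe doxycycline treatment of NIH-3T3 cells before ATAC-seq without setting the parental line apart, so whether these cells received it is not settled. In ATAC-seq, the transposase Tn5 cuts and tags DNA that nucleosomes leave uncovered, and a peak is a stretch where the sequenced fragments pile up. The list holds 63456 peaks in mm10 coordinates, with a median of 29 fragments at the summit and a lowest value of 10. Replicate error could not be estimated from 1 library, and no p-value between samples is given. Intervals for fragment numbers are exact Poisson 95% intervals and cover counting error only.

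Hedgehog ligands bind the receptor Ptch1, which in their absence keeps the membrane protein Smo inactive. Freed Smo acts in the primary cilium and relieves the hold of Sufu on the transcription factors Gli2 and Gli3, which otherwise are processed to repressors, and Gli1 is then made as a further activator. Ptch1, Hhip and Gli1 are themselves targets of the pathway, and NIH-3T3 cells are widely used to measure responses to Hedgehog.

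The sequences that the results turn on are those before the starts of Hhip and Gli2, where no peak was called, of the peaks that hold the letters of the GLI consensus, and of intronic peaks with the letters that AP-1 factors bind. All are from GRCm38, the build that mm10 names, and are written in the direction of the gene. The 200 bases before the outermost Hhip start (chr8:80058061-80058260, minus strand) and before the Gli2 gene start (chr1:119053620-119053819, minus strand) lie outside any peak and outside exons annotated in GENCODE. Capitals mark their CpG dinucleotides, of which there are 24 and 20. A RefSeq transcript model of Gli2 starts further upstream, at chr1:119054405.
Hhip upstream of the start: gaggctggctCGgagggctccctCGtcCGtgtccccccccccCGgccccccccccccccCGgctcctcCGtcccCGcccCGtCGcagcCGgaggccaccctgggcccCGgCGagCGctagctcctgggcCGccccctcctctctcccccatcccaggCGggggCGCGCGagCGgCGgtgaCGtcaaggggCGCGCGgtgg
Gli2 upstream of the start: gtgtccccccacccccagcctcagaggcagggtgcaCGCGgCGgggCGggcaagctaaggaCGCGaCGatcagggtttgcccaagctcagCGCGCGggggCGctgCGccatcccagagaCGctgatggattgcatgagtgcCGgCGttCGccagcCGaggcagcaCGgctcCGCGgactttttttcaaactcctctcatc

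GLI proteins bind TGGGTGGTC, and AP-1 factors such as Fos and Jun bind TGACTCA. Both were searched on both strands. In the next pair of sequences capitals mark these letters. The Ptch1 sequence covers 300 bases around the summit of an intronic peak upstream of the main coding start (chr13:63566175-63566474, minus strand), and holds TGGGTGGTC and, further on, TGAGTCA, which is TGACTCA on the opposite strand. The Smo sequence covers the summit of a peak between genes upstream of Smo (chr6:29718995-29719213, plus strand). The matches do not overlap each other.
Ptch1 peak with TGGGTGGTC: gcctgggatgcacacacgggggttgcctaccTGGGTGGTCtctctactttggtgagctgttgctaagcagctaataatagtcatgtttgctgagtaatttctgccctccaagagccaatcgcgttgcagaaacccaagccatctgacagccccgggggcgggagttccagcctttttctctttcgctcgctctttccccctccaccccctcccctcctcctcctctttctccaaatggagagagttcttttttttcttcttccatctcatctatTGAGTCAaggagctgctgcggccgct
Smo upstream peak with TGGGTGGTC: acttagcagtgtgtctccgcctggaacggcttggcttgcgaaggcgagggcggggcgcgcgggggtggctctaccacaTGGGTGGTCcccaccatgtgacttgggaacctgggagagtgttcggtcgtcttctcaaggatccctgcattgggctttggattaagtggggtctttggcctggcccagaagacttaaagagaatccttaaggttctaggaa

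The last set shows 81 bases at the summits of intronic peaks with TGACTCA or its complement in capitals, for the peak of this kind with the highest fold enrichment in Cdon (chr9:35467577-35467657, plus strand), Gli2 (chr1:118976681-118976761, minus strand) and Gli3 (chr13:15691904-15691984, plus strand).
Cdon intronic peak: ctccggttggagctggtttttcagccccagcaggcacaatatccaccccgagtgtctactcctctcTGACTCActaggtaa
Gli2 intronic peak: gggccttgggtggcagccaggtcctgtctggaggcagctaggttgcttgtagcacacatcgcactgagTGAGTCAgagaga
Gli3 intronic peak: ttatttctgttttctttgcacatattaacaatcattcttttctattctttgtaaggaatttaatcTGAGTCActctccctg

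Accessible chromatin marked the promoters of most of these genes. A peak within 1 kb of an annotated transcript start, called a promoter peak here, was present at 8 of the 10 genes, while 53.7% of all protein-coding genes had one. Hhip and Gli2 had none. A peak covered the start of the gene itself at 6 of the 10 genes (Boc, Cdon, Gas1, Smo, Sufu and Gli3), against 42.5% of coding genes. The height of a peak was read as its fold enrichment, the fragments at the summit over those expected locally, each with 1 added. Over the 8 genes, the median fold enrichment of the highest promoter peak was 8.98, close to the median of 9.86 over all coding genes with a promoter peak (quartiles 7.27 and 12.4). The median number of fragments at these summits was 63.5, beside 64 for coding genes. In fold enrichment, 7 of the 8 lay within the quartiles of coding genes, Ptch1 being the exception below them. The value of Gli1 (7.75) rests on a peak away from its gene start, and was 2.90 when only peaks over a start counted and 3.26 with the gene start or RefSeq starts alone.

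The order of the promoters by fragments at the summit was Gas1 (111), Sufu (95), Gli3 (73), Cdon (71), Gli1 (56), Ptch1 (54), Smo (52) and Boc (44). No neighbours in this order differed beyond their intervals. Genes further apart did: the interval of Gas1 (91.3 to 134) lay above those of Cdon, Gli1, Ptch1, Smo and Boc, and that of Sufu (76.9 to 116) above those of Gli1, Ptch1, Smo and Boc. The 95 fragments of Sufu are those of a peak over the start of its neighbour Actr1a. The peak over Sufu's own start had 87, and its interval (69.7 to 107) lay above those of Smo and Boc and overlapped those of Gli1 and Ptch1. Likewise, the 56 fragments of Gli1 are those of a peak away from its gene start. The peak nearest to that start had 22 (13.8 to 33.3), fewer than the 44 of Boc. Its interval overlapped that of Boc and lay below those of the other genes. The order by fold enrichment was different, since the locally expected pileup ranged from 4.39 fragments at Boc to 11.9 at Ptch1, with 2.81 as the lowest value the peak caller used. Cdon was highest (11.3) and Ptch1 lowest (4.26) on that scale. Gli1 was lowest instead with RefSeq starts (3.26), when only peaks over a start counted (2.90) and with a limit of 5 kb (7.75).

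**Figure D1:**
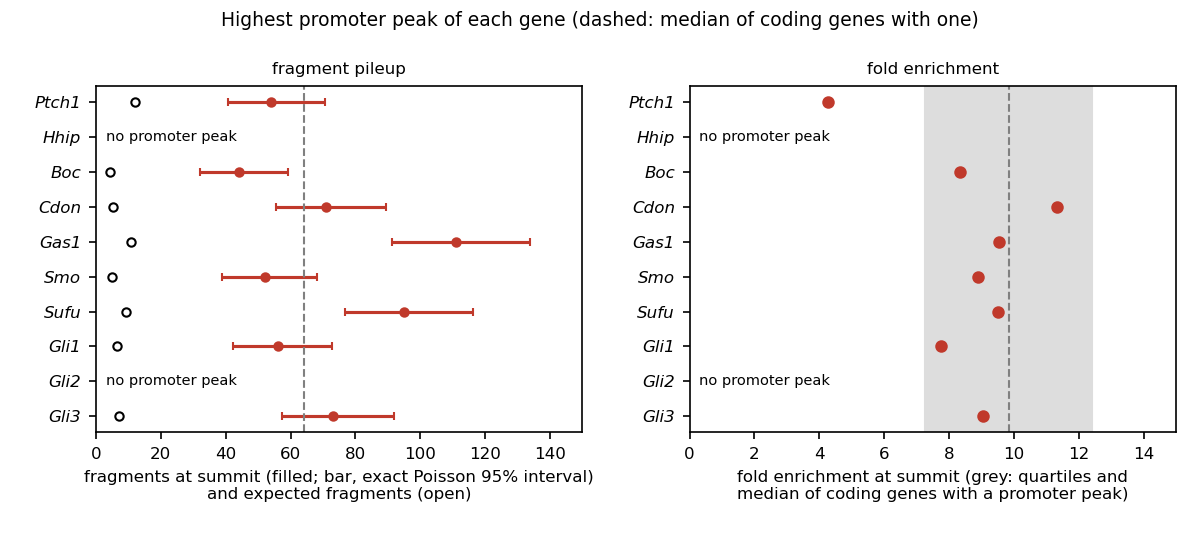
Highest promoter peak of each gene in 1 library: fragments at the summit with exact Poisson 95% intervals and the expected fragments (left), and fold enrichment with the quartiles of coding genes that have a promoter peak (right). Among the peaks shown, Gas1 has the most fragments (111), and Ptch1 has the lowest fold enrichment (4.26) over the highest expected pileup (11.9). With RefSeq starts alone, Gli1 is lower (3.26).

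Within the genes and 50 kb to either side lay 80 peaks, of which 14 were promoter peaks, 23 lay elsewhere in the gene bodies, 20 upstream and 23 downstream. Of the 43 peaks in the flanks, 10 were within 1 kb of the start of another gene and 13 were in the body of another coding gene, 5 of them both, and 25 were neither, so that proximity does not assign them to these genes. The number per gene ran from 1 at Hhip to 21 at Gli3, with a median of 6, beside a median of 5 over all coding genes (quartiles 2 and 9). At least 1 peak in the gene body and more than 1 kb from any start of any gene was found in 6 of the 10 genes, against 32.5% of coding genes. Of the 7 genes of at least 50 kb, 5 had such a peak, while 25.9% of all 5007 coding genes of that length had none. Per 100 kb of gene body there were 2.35 such peaks in these genes and 2.06 in coding genes together.

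**Figure D2:**
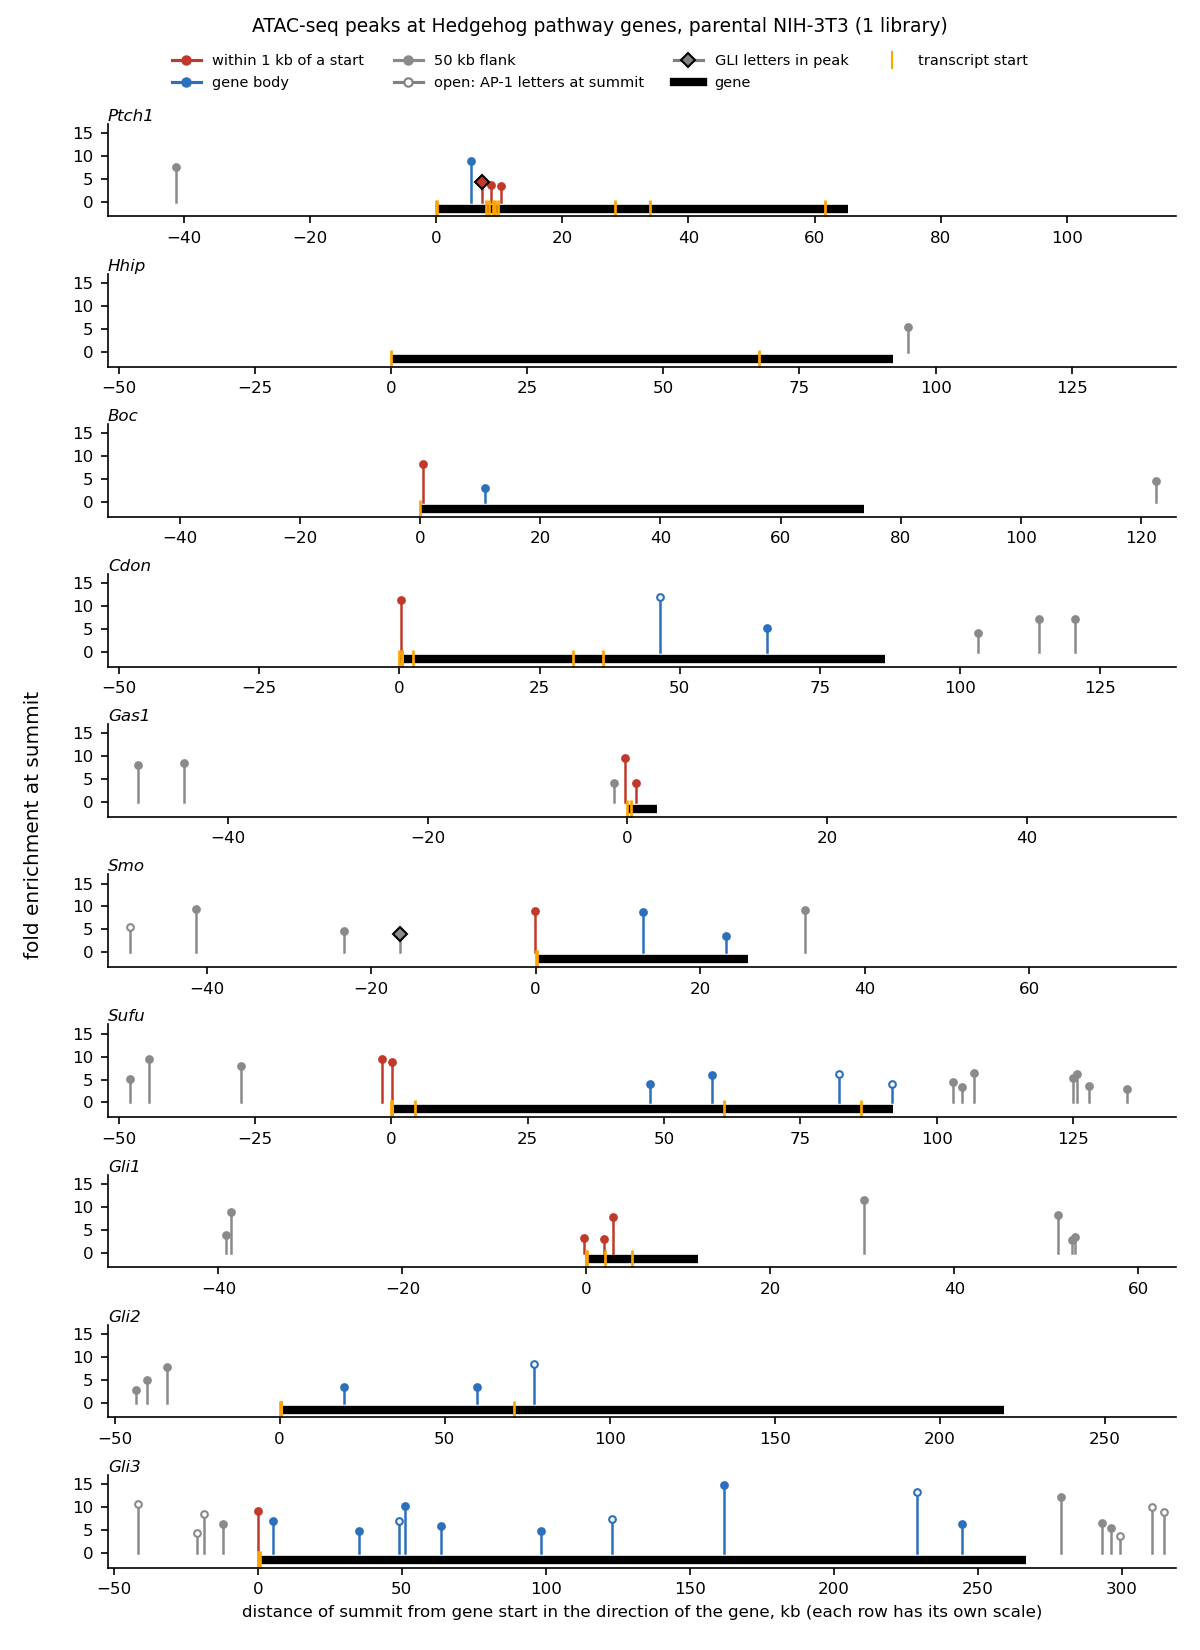
Peaks of each gene and its 50 kb flanks by distance of the summit from the gene start in kb (horizontal; each row has its own scale) and fold enrichment (vertical), coloured by class, with transcript starts in orange. Gli3 has 21 peaks along its locus, and Hhip has 1, beyond its end.

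Ptch1, the receptor and a feedback target, had accessible sites along its 5' part that stood apart from its outermost start. The gene (chr13:63508328-63573598, minus strand) had 3 promoter peaks, all with the summit in an intron. Their fold enrichments were 4.26, 3.73 and 3.39, and the values of −log10 q, the peak caller's adjusted significance, were 16.4, 12.1 and 9.64. The peak of 4.26 began 224 bp upstream of the start of the main coding transcript, which GENCODE and the curated RefSeq set share. The peak of 3.73 covered the starts of 2 other coding transcripts further in, and the weakest lay 379 bp from the start of a transcript marked for decay. The outermost start of the gene had its nearest peak at 5302 bp. Between these starts was the strongest peak of the gene (chr13:63567689-63568296), with 114 fragments (94.0 to 137) over 11.9 expected, a fold enrichment of 8.88 and −log10 q of 66.1. It lay 1954 bp from the closest Ptch1 start, outside the 1 kb that defines a promoter peak. Its summit was 9 bp from the annotated start of A930032L01Rik, a gene model on the same strand that the annotation does not class as coding or noncoding. The intervals of the 3 promoter peaks (54, 47 and 43 fragments) overlapped each other, and that of the strongest peak lay above all of them.

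The Ptch1 peak nearest to the main coding start held TGGGTGGTC at chr13:63566435-63566443 on the strand of the gene, 700 bp upstream of that start and 114 bp from the summit. Over the 80 peaks of the 10 genes and their flanks, 2 held these letters (2.5%, exact binomial interval 0.304% to 8.74%), while 0.282% of all peaks (179) did. With a q of 1e-05 or below, 1 of 70 peaks held them (1.43%, 0.0362% to 7.70%, beside 0.316% of all peaks at that threshold), and at a fold enrichment of at least 5, 0 of 50 (0% to 7.11%, beside 0.374%). Within 50 bp of the summit the letters were in 1 of the 80 peaks (1.25%, 0.0316% to 6.77%) and in 0.0284% of all peaks (18). The peaks of these genes were a little wider than all peaks of the list, with a median of 389 bp against 327 bp. Over the whole list, peaks with the letters had a median of 699 bp. The 2 peaks with them here were 540 bp (Ptch1) and 289 bp (Smo) wide. In windows of 250 bp to either side of the summit, 2 of the 80 peaks (2.5%, 0.304% to 8.74%) and 0.325% of all peaks held them. The other match lay 16430 bp upstream of Smo, 13 bp from the summit of a weak peak. None of the 10 windows from 250 bp before to 50 bp after the gene starts held the letters, and 48 of all coding genes (0.219%) did. A match describes letters in a peak, and binding of GLI proteins was not measured in this library.

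**Figure D3:**
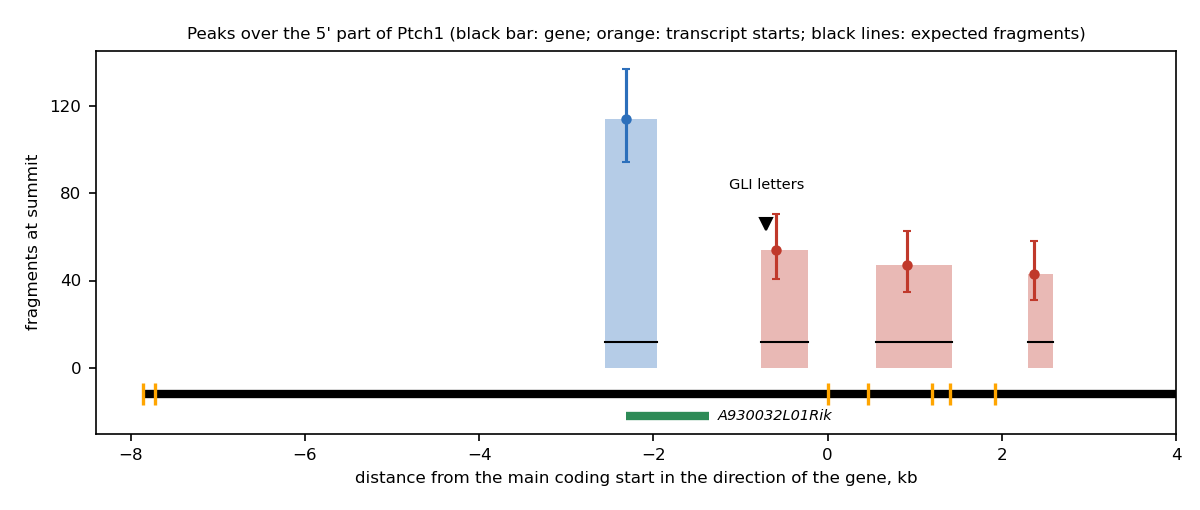
Fragments at the summit of the peaks over the 5' part of Ptch1 (points, with exact Poisson 95% intervals; shaded width, extent of the peak; black lines, expected fragments) by distance from the main coding start in kb. The strongest peak (114 fragments) lies over the start of A930032L01Rik, and the peak with the GLI letters has 54.

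Hhip encodes a membrane protein that binds Hedgehog ligands and holds them from Ptch1, and it is a target of the pathway. Its locus was the emptiest of the 10. No peak lay in its 92156 bp (chr8:79965851-80058006, minus strand), and the only peak within 50 kb was beyond its 3' end (chr8:79963014-79963199), with −log10 q of 9.05, 20 fragments (12.2 to 30.9) and a fold enrichment of 5.52. From that peak to the next one upstream, 745 kb held no peak, a stretch measured after its values were seen. Of the 63435 gaps between neighbouring peaks, whose median was 12.2 kb, 0.651% were at least as long. A count of 1 or fewer peaks in the gene and its flanks was found for 21.6% of coding genes.

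The start of Hhip had no peak although it was rich in CpG. The ratio of observed to expected CpG in the 300 bp at its start was 0.756, above the median of 0.744 over coding genes with a promoter peak and far above that of 0.238 over those without. Of the 6588 coding genes with a ratio at least as high, a limit set after the value of Hhip was seen, 923 (14.0%) lacked a promoter peak. Gli2, with a ratio of 0.830, was among them as well. Gas1 (0.931) and Gli3 (0.816), which had promoter peaks, were richer in CpG than Hhip. Boc had the lowest ratio of the 10 genes (0.434) and a promoter peak, which 24.0% of the coding genes with its ratio or a lower one had. The median over the 10 genes was 0.629, and over all coding genes 0.524.

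The co-receptors Boc, Cdon and Gas1, surface proteins that bind Hedgehog ligands and present them to Ptch1, all had promoter peaks. Cdon, an immunoglobulin-family protein, had the highest promoter peak of the 10 genes by fold enrichment (chr9:35421117-35422167, 11.3, with −log10 q of 50.3 and 71 fragments, 55.5 to 89.6). It covered the outermost starts of the gene (chr9:35421128-35507652, plus strand), while the start of the curated RefSeq transcript further in had no peak within 15299 bp. An intronic peak of Cdon (chr9:35467375-35467902) had a fold enrichment of 12.1 and 58 fragments (44.04 to 74.98). It held TGACTCA 29 bp from its summit.

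Gas1, a membrane-anchored co-receptor in a gene of only 2961 bp (chr13:60174405-60177365, minus strand), had the most fragments of any promoter peak of the set. That peak (chr13:60176916-60177872) covered both annotated starts, with a fold enrichment of 9.55 and −log10 q of 67.8. A weaker peak in the coding exon (fold enrichment 4.18, 48 fragments) lay 158 bp from a Gas1 start, covered the start of the noncoding gene Gm48488 on the opposite strand, and was the only peak with its summit in Gas1. A peak of like height (4.21, 48 fragments) 1172 bp upstream fell just outside the 1 kb limit, and lay 478 bp from a start of Gm48488. Boc, the paralogue of Cdon, had 1 promoter peak (chr16:44557703-44558942) with a fold enrichment of 8.35, −log10 q of 26.2 and 44 fragments (32.0 to 59.1), which also covered the start of the microRNA gene Mir3081 inside the gene. In the rest of its 73849 bp, Boc had 1 peak, of 11 fragments and a fold enrichment of 2.97, near the lower end of the list.

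Smo, the transducer that acts in the cilium, and Sufu, the cytoplasmic inhibitor of the GLI proteins, had peaks over their starts. The Smo promoter peak (chr6:29735354-29736506) had a fold enrichment of 8.91, −log10 q of 32.0 and 52 fragments (38.8 to 68.2). An intronic peak of Smo (chr6:29747931-29749059) had a fold enrichment of 8.73 and 41 fragments (29.4 to 55.6). Repeat-masked sequence made up 99.6% of that peak, and 1.08% of all peaks more than 1 kb from any start were over 90% repeat. The upstream peak with TGGGTGGTC (chr6:29718995-29719283) was weak, with 16 fragments (9.15 to 26.0) and a fold enrichment of 4.00.

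Sufu (chr19:46396896-46488804, plus strand) had 2 promoter peaks of like height. The peak over its start (chr19:46396703-46397161) had a fold enrichment of 8.78, −log10 q of 50.7 and 87 fragments (69.7 to 107). The other, with 9.51 and 95 fragments (76.9 to 116), was exactly 1000 bp from the Sufu start, the largest distance that the limit allows, and covered the start of the neighbouring gene Actr1a, which codes for a dynactin subunit. The peak over the start alone also gives Sufu its promoter peak. The 4 further peaks in the gene body had fold enrichments between 3.92 and 6.27, the highest of them (chr19:46478386-46479632) with 51 fragments and TGACTCA 24 bp from its summit. With 16 peaks in the gene and its flanks, Sufu was second to Gli3.

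The genes of the 3 transcription factors had unlike sets of peaks. Gli1, the activator whose own transcription is a standard readout of Hedgehog signalling, had a weak peak at its start. That peak (chr10:127341996-127342529) lay 22 bp from the gene start (chr10:127329882-127341974, minus strand) and had 22 fragments (13.8 to 33.3), a fold enrichment of 3.26 and −log10 q of 4.70. A stronger peak in an intron (chr10:127338826-127339447), 512 bp from the start of an alternative coding transcript, had 56 fragments (42.3 to 72.7), a fold enrichment of 7.75 and −log10 q of 30.6. The intervals of these peaks did not overlap. Another peak, of 20 fragments and 2.90, covered that start. Every one of the 9 peaks in Gli1 and its flanks was within 1 kb of some gene's start, and the higher ones outside the gene were at the starts of Mars, Ddit3 and R3hdm2.

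Gli2, the main activator downstream of Smo, had no promoter peak. Its gene start (chr1:118834132-119053619, minus strand) was 19430 bp from the nearest peak, and the closest of its annotated starts 5547 bp. In its 219488 bp lay 3 intronic peaks. The highest (chr1:118976502-118977041) had 53 fragments (39.7 to 69.3), a fold enrichment of 8.51, −log10 q of 31.4 and TGACTCA 31 bp from its summit, and the others had 15 and 19 fragments. Among the 998 coding genes of at least 200 kb, which had a median of 5 peaks in the gene body, Gli2 was at percentile 39.1.

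Gli3, which is processed to the main repressor of the pathway when ligand is absent, had the most peaks. Its promoter peak (chr13:15462805-15464499) covered all 4 annotated starts, with a fold enrichment of 9.06, −log10 q of 44.1 and 73 fragments (57.2 to 91.8), and also covered the start of the noncoding gene Gm6556 on the opposite strand. In the gene body (chr13:15463235-15730026, plus strand) lay 10 further peaks, all intronic, which put Gli3 at percentile 73.2 among coding genes of at least 200 kb. The highest (chr13:15624553-15625110) had a fold enrichment of 14.7, −log10 q of 51.98 and 61 fragments (46.7 to 78.4), over 3.22 expected, and the next (chr13:15691750-15692409) had 13.2 and 56 fragments (42.3 to 72.7). These 2 peaks were higher in fold enrichment than 97.0% and 94.5% of all peaks more than 1 kb from any start. With its flanks the locus held 21 peaks, a number that 1.20% of coding genes of any length reached. That share makes no allowance for the length of Gli3 (266792 bp).

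The AP-1 letters were found at these loci about as often as elsewhere in the list. Of the 55 peaks more than 1 kb from any start, 14 held TGACTCA within 50 bp of the summit (25.5%, exact binomial interval 14.7% to 39.0%), and 26.4% of all such peaks did. Gli3 had 9 of its 20 (45%, 23.1% to 68.5%) and the other genes together 5 of 35 (14.3%, 4.81% to 30.3%). The 2 intervals overlap, both include 26.4%, and the split by gene was made after the values were seen. Peaks of these genes with the letters had a median fold enrichment of 7.90 and those without 5.52, beside 6.31 and 5.30 over all peaks more than 1 kb from any start. Gli3 gave 9 of the 14 peaks with the letters, and its 20 peaks had a median of 7.02. Whether the difference holds within single loci was not tested.

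The steps of the pathway around these genes were compared by 6 lists with 62 further genes. A promoter peak was present at 43 of them (69.4%, against 53.7% of coding genes). All 18 genes of kinases, adaptors and degradation had one, with the highest fold enrichments at Prkaca (14.1), the catalytic subunit of protein kinase A, which marks GLI proteins for processing, and at the ubiquitin ligase gene Smurf1 (13.999). Of 16 genes of the cilium and its trafficking, 15 had one, led by the intraflagellar transport gene Ift88 (16.4) and by Arl13b (16.3), a ciliary GTPase. Gpr161, a ciliary receptor that restrains the pathway, was the exception. The highest promoter peak of Evc was the peak over the start of its neighbour Evc2, so that 1 peak gives the value of both genes.

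None of the ligand genes Shh, Ihh and Dhh had a promoter peak. Of 5 genes for processing and release, Disp2 (9.99), Hhat (9.69), which adds palmitate to the ligand, and Disp1 (5.78) had one, and Scube2 and Scube3 had none. None of the 4 genes for other surface receptors and ligand binding had one, namely Lrp2, Gpc3, Gpc4 and Gpc6. Among 16 genes described as Hedgehog targets, 7 had a promoter peak (43.8%), the highest at Bcl2 (9.04), which blocks apoptosis, and Ccne1 (8.95), the gene for cyclin E1. The median of the highest fold enrichment was 9.93 over the cilium list, 10.5 over the kinase list and 7.45 over the target list.

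**Figure D4:**
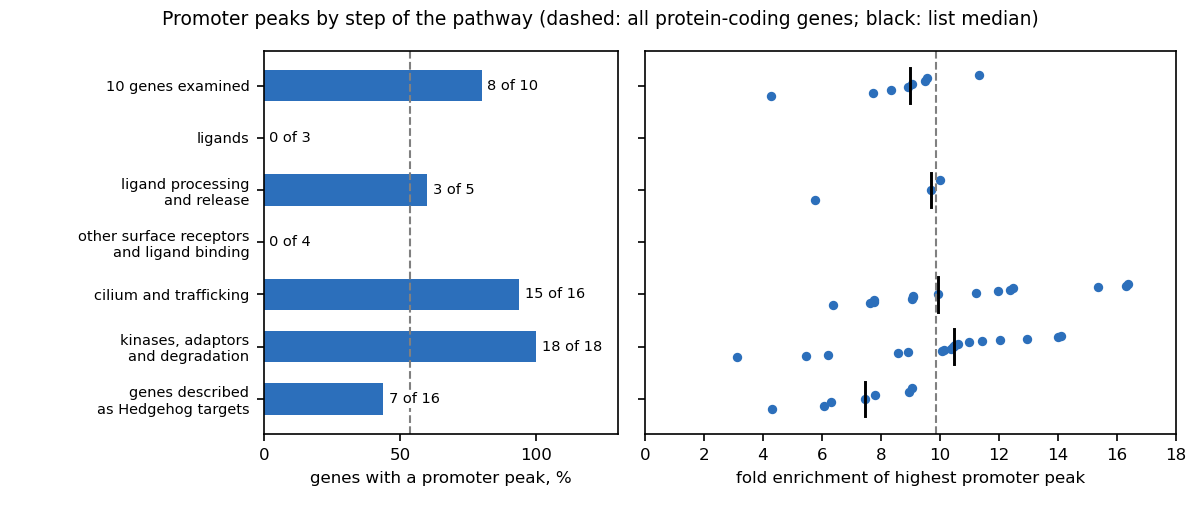
Share of genes with a promoter peak in each list (left, bars in percent with counts) and fold enrichment of the highest promoter peak of each gene (right, points, with the list median in black). Dashed lines give all protein-coding genes: 53.7% with a promoter peak and a median of 9.86.

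The label of a fibroblast line was checked against markers of cell types. Of 18 fibroblast genes, 16 had a promoter peak, among them Fn1 (10.5), Twist1 (10.1) and Col1a2 (7.79), and Lum and Fap had none. The lowest was Thy1 (3.41), and the list median of 6.47 was below the 9.86 of coding genes with a promoter peak. The share to set beside the count of each list is the 53.7% of all coding genes. None of 5 pluripotency genes had one. Promoter peaks were found at 2 of 7 epithelial genes (Krt14 at 7.07 and Krt8 at 3.25), 3 of 6 leukocyte genes (Lyz2 at 4.39, Spi1 at 3.22 and Cd68 at 2.89), 1 of 5 neuronal genes (Syn1, 9.19) and 2 of 5 skeletal muscle genes (Des at 5.00 and Ckm at 4.32). The leukocyte genes Ptprc, Cd3e and Itgam and the muscle genes Myod1, Myog and Myf5 had none. Of 5 endothelial genes 4 had one, the highest at Cdh5 (12.8) and Pecam1 (8.40), while Kdr had none, and their median was 7.36. The highest promoter peaks of Cdh5, Pecam1 and Vwf were more than 1 kb from the gene start, near starts of alternative transcripts, as were those of Thy1, Pdgfra and Dcn among the fibroblast genes, of Des, and of 7 of the 43 pathway genes, Smurf1 and Hhat among them. What part other cells had in these peaks was not tested.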

How the data were processed

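The peak list of the parental NIH-3T3 ATAC-seq library was used. Per the submitters' processing notes, the tools were STAR 2.5.3a, Picard, SAMtools, deepTools and MACS2 2.1.1.20160309, with mm10. The authors deposited for each peak a fold enrichment (ratio of summit to locally expected pileup, each with 1 added) and −log10 p and −log10 q values of the peak. The deposited score was not used further. The number of fragments at a summit follows from the fold enrichment and the −log10 p together, and came out whole within 0.02 for 63454 of 63456 peaks; this step was tested on simulated data. The peak list does not give the number of reads, for which the methods state only a range over samples.

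Peaks were placed by GENCODE M21 and GRCm38. A promoter peak lay within 1 kb of any transcript start of the gene; other peaks were placed by their summit. CpG ratios were taken from 250 bp before to 50 bp after the gene start. Peaks were not compared with blacklisted regions here. The methods refer ATAC-seq peak calling to the ChIP-seq procedure, which discards such regions, and whether the deposited list was filtered was not tested. Named were all 10 genes, for each its highest promoter and gene-body peak or else the nearest peak, and peaks with TGGGTGGTC; in the other pathway lists, the genes without a promoter peak where these were 6 or fewer, and the 2 highest. Other peaks, pathway genes and marker genes named were chosen after their values were seen. Some genes of the lists are not reported here. The genes and lists were chosen with earlier results of these data known. Alternatives were stricter thresholds, other distances, starts, flanks and windows. Software was pysam 0.24.0, SciPy 1.17.1, pandas 2.3.3, NumPy 2.4.6, matplotlib 3.10.9 and Python 3.11.15.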

Additional observations from a re-analysis of the deposited data

How the results depend on the processing

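Hhip and Gli2 lacked a promoter peak under every alternative run. The number of genes with one fell from 8 to 7, without Ptch1, when a fold enrichment of at least 5 was required or the gene start alone was used. The share of all coding genes was then 48.8% and 48.9%. Under the other alternatives the number was 8, and the share of coding genes ran from 48.7% (peak over a start) to 62.8% (limit of 5 kb). With a limit of 5 kb, the highest peak of Ptch1 became that of 8.88. The highest promoter peak of Gli1 fell from 7.75 to 2.90 when the peak had to overlap a start, and to 3.26 with the gene start alone or with RefSeq starts. Peaks with the summit in gene bodies, promoter peaks included, numbered 32, and 19 at a fold enrichment of at least 5. At that limit 50 of 80 were left within 50 kb, as were 39522 of the 63456 peaks of the whole list, a like share. None (0) of the 50 held TGGGTGGTC. A flank of 25 kb left 51 peaks. TGGGTGGTC was held by 1 peak at a q of 1e-05 and by 1 within 50 bp of the summit, where 0.0284% of all peaks held it, against 0.282% for whole peaks. Requiring a q of 0.01 moved no count by over 1.5 times. RefSeq transcript starts, an alternative chosen after seeing the data, gave 8 genes and 44 of the 62 other pathway genes, beside 51.1% of coding genes. Low peaks rest on few fragments: the Gli1 peak at the gene start had 22, and a missing peak says only that none was called at this depth. No paired analysis was possible because there was 1 library.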
